A study of Mus musculus with 68 samples.

Results

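The comparison described here set the inner cell mass (ICM) of mouse blastocysts injected as zygotes with a morpholino against Max (Max MO, 2 libraries) directly against the ICM of blastocysts injected with a morpholino against Mcrs1 (Mcrs1 MO, 2 libraries), 4 of the 68 libraries of the series. The control libraries were left out of this comparison, because they held between 7809 and 13013 TPM of the ribosomal RNA precursor Rn45s against 168 to 630.0 TPM in the knockdown libraries. The zygotes came from superovulated C57BL/6j females mated with C57BL/6j males, and the embryos were grown to blastocysts, from which the ICM and the trophectoderm (TE) were separated by hand with needles and pooled as blastomeres. A morpholino is a short synthetic oligonucleotide that pairs with 1 transcript and blocks its translation or splicing. It stays in the embryo from injection onwards, so every lineage of the blastocyst carries it, and the study's methods give the Max MO a higher concentration than the Mcrs1 MO. The study's text calls the 2 libraries of a group biological replicates, and the labels do not tie libraries to embryos. The matching TE libraries of both knockdowns (2 each) were used to ask whether a difference was also present in the other lineage. They also entered the fit of the ICM comparison, where they added to the estimate of the spread between replicates. The labels call the 4 control libraries (2 of the ICM, 2 of the TE) untreated, while the protocol names a random control morpholino. Values are given as TPM (StringTie's length-scaled measure of transcript abundance) of annotated genes, and differences as log2(TPM + 1) of Max MO minus Mcrs1 MO, so that a positive difference is a higher level with Max MO. Such a difference does not say which morpholino moved the gene.

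MAX is the obligate partner of MYC proteins and of their antagonists, the MXD proteins and MGA, and these pairs bind the E-box CACGTG. With MGA it also belongs to a variant Polycomb complex, PRC1.6, which keeps germ cell genes silent in embryonic stem cells. MCRS1 is a subunit of the NSL histone acetyltransferase complex and of the INO80 chromatin remodeller, and it also binds spindle microtubules. In the blastocyst the ICM gives rise to the epiblast, the source of the embryo proper, and to the primitive endoderm, while the TE forms the placenta.

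The 4 ICM libraries differed in their levels of trophectoderm marker transcripts. These values stand beside every difference below, and their part in it was not tested. On log2(TPM + 1), the Max MO ICM libraries correlated with each other at r = 0.940 and the Mcrs1 MO ICM libraries at r = 0.946, across genes. Mcrs1 MO ICM replicate 1 correlated at 0.949 with Mcrs1 MO TE replicate 1, as closely as with its own replicate, whereas the Max MO ICM libraries reached at most 0.886 with a Max MO TE library. The summed level of 7 trophectoderm markers was 2927 and 6272 TPM in the Max MO ICM, 12414 and 8776 in the Mcrs1 MO ICM and 16316 to 22056 in the TE of the knockdowns. Of the control ICM libraries, replicate 1 held 17152 TPM of these markers and replicate 2 held 645. The 7 epiblast markers summed to 1423 and 1709.6 TPM with Max MO and to 838 and 1366 with Mcrs1 MO. Depth, as aligned bases inferred from the deposited coverage and FPKM, was 1.98 and 2.34 gigabases with Max MO and 2.91 and 2.68 with Mcrs1 MO, and 10502 to 10693 genes reached 1 TPM in each library. Of 5 cumulus cell markers, Has2, Ptx3, Cyp19a1 and Lhcgr were listed at 0 in all 4 ICM libraries, and the 4 oocyte markers summed to at most 3.69 TPM.

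Both targeted transcripts were lower in the knockdown aimed at them. Max (chr12:76937269-76962248 of mm10) held 6.82 and 0.443 TPM with Max MO and 14.4 and 9.25 TPM with Mcrs1 MO. Both Max MO libraries were below both Mcrs1 MO libraries, but on the log scale the Max MO replicates differed from each other more than replicate 1 differed from either Mcrs1 MO library, and the difference did not pass the test (log2 difference -1.90, SE 0.69, limma adjusted p = 0.0961, 95% interval -3.43 to -0.38). Without Max MO ICM replicate 1 it passed, with a log2 difference of -3.12 and limma adjusted p = 0.00921. Mcrs1 (chr15:99242817-99251961 of mm10) was at 218 and 242 TPM with Max MO and at 86.8 and 73.4 TPM with Mcrs1 MO, with no overlap. This was past the threshold (log2 difference 1.51, SE 0.18, limma adjusted p = 0.00172) in 16 of 16 alternative settings of the analysis. In the TE, Mcrs1 held 206 and 194 TPM against 41.1 and 45.5 TPM, and Max 16.3 and 8.68 against 17.6 and 15.7, where the Max MO range reached into the Mcrs1 MO range. A morpholino that blocks translation need not lower its transcript, so the TPM is not a measure of the protein.

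**Figure D1:**
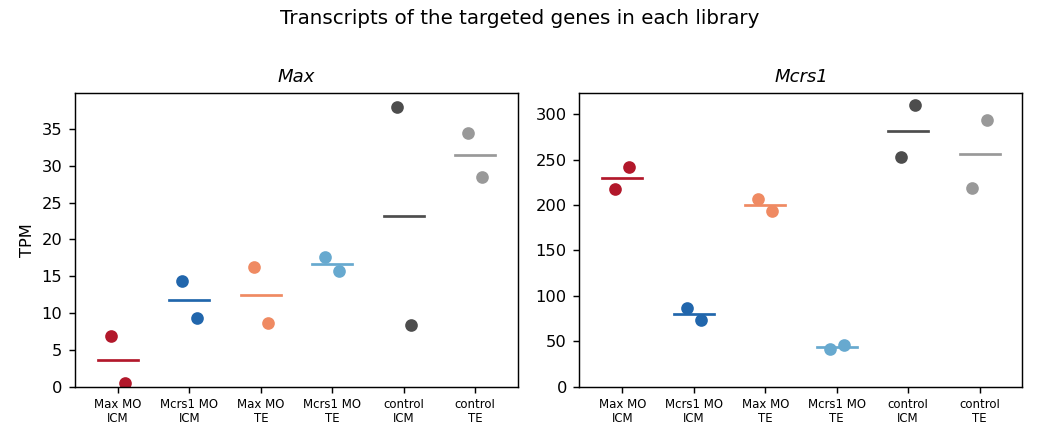
TPM (linear axis) of Max, left, and Mcrs1, right, in the 8 knockdown and 4 control libraries, 2 per group. Points are libraries and lines are group means. Mcrs1 is lowest in the 4 libraries injected against it (41.1 to 86.8 TPM), while Max is lowest in Max MO ICM replicate 2 (0.443 TPM).

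Across the 10844 genes tested, 884 differed between Max MO and Mcrs1 MO in the ICM at a limma adjusted p under 0.05 and at least 2-fold, which is 8.15% of the genes. Of these, 218 (2.01% of the genes tested) were higher with Max MO and 666 (6.14%) were lower. In all 884 the Max MO and Mcrs1 MO libraries did not overlap, which nearly follows from the call and adds no support to it. The share of such genes among all tested was not counted. With the 4 ICM libraries fitted alone, without the TE libraries in the estimate of the spread, 213 genes passed. An unadjusted limma p under 0.05 was reached by 3191 of the 10844 genes, which is the background for such counts in the lists below. The median difference of all genes was -0.15. With quantile normalization that median became -0.0077 and the calls became 310 higher and 467 lower, so part of the excess of lower genes depended on the scaling. The count rested strongly on single libraries: it was 863 without Max MO ICM replicate 1, 634 without Max MO ICM replicate 2, 316 without Mcrs1 MO ICM replicate 1 and 557 without Mcrs1 MO ICM replicate 2. In the TE, 13 genes (0.12%) passed the same test, 6 higher and 7 lower with Max MO. The difference between the lineages was itself past the threshold for 399 genes (3.68%), of which 270 were also among the 884. That count fell to 1 when limma was fitted without a trend and to 0 when the 4 control libraries entered the fit, where 1415 genes had an unadjusted p under 0.05, and to 25 without Mcrs1 MO TE replicate 2.

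**Figure D2:**
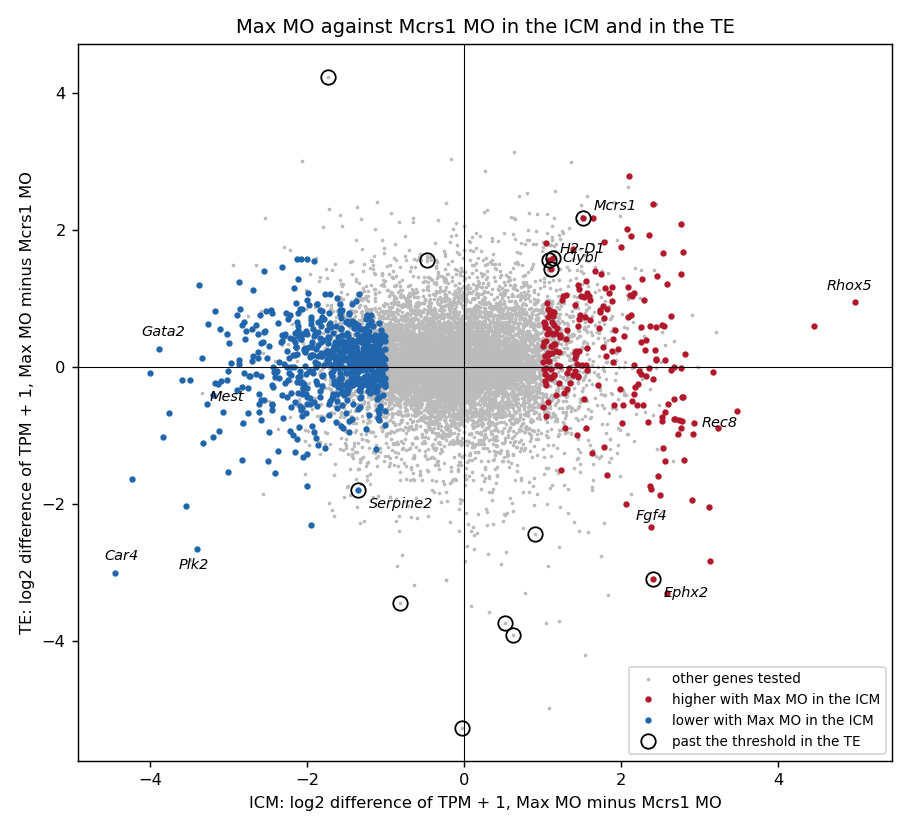
Each point is 1 of 10844 genes, with the log2 difference of TPM + 1 between Max MO and Mcrs1 MO in the ICM on the horizontal axis and in the TE on the vertical axis. Red and blue points are the 218 higher and 666 lower genes of the ICM, and rings mark the 13 genes past the threshold in the TE, of which 6 lie among the coloured points.

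Of the 22 tested members of the trophectoderm list, 12 were lower with Max MO, none was higher and 10 did not pass, against 6.14% of all genes lower. All 22 differences were negative, and the median difference was -1.37 against -0.15 for all genes. Gata3, a transcription factor that switches on the trophectoderm programme, was at 97.7 and 72.7 TPM with Max MO and at 457 and 399.9 TPM with Mcrs1 MO (log2 difference -2.33, SE 0.19, limma adjusted p = 0.000254). Cdx2, the homeobox factor required to maintain the lineage, was at 3.25 and 3.77 against 28.6 and 17.1 TPM (log2 difference -2.36, SE 0.39, limma adjusted p = 0.00546). For both genes the Mcrs1 MO ICM libraries lay at or close to the level of the TE libraries, which held 666 and 541 TPM of Gata3 and 22.8 and 30.8 TPM of Cdx2 with Max MO.

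Gata2, a relative of Gata3 with a role in trophoblast giant cells, was at 2.03 and 1.56 TPM against 41.4 and 39.2 TPM (log2 difference -3.89, SE 0.37, limma adjusted p = 0.000753). Eomes, a T-box factor of trophoblast stem cells, fell from 35.8 and 30.3 TPM with Mcrs1 MO to 9.94 and 3.46 TPM with Max MO (log2 difference -2.28, SE 0.40, limma adjusted p = 0.00729). The keratins of the trophectoderm epithelium differed less: Krt8 was at 1509.8 and 3172 TPM against 5008 and 3893 TPM, a log2 difference of -1.01, and Krt18 at 1097 and 2572 TPM against 6021 and 3701 TPM, a log2 difference of -1.49. Id2, an inhibitor of basic helix-loop-helix factors, had a log2 difference of -1.59. The tight junction gene Cldn4, the water channel Aqp3, Krt7, Tspan8 and Mbnl3 were the other members that fell. Tfap2c, which the trophectoderm shares with other cells of the embryo, was at 52.2 and 75.2 TPM against 65.6 and 66.2 TPM and the libraries overlapped. In the TE the same list had a median difference of 0.28 and no member past the threshold, and for 7 of its members the difference between the lineages passed the test.

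Of 19 tested epiblast genes, 4 were higher with Max MO, none was lower and 15 did not pass, against 2.01% of all genes higher. The differences of 15 were positive and those of 4 negative, and the median was 0.66. Fgf4, the signal from the epiblast that directs its neighbours to primitive endoderm, was at 15.4 and 13.2 TPM with Max MO and 1.88 and 3.64 TPM with Mcrs1 MO (log2 difference 2.06, SE 0.53, limma adjusted p = 0.0297), and was called in 8 of 16 alternatives. In the TE its order was turned around, with both Max MO libraries listed at 0 and 2.24 and 3.95 TPM with Mcrs1 MO, and the difference between the lineages passed the test (log2 difference 4.06, SE 0.75, limma adjusted p = 0.0202). Gdf3, a ligand of the Nodal pathway, was at 136 and 155 TPM against 38.7 and 70.6 TPM (log2 difference 1.45, SE 0.29, limma adjusted p = 0.0127). Utf1, a chromatin factor of pluripotent cells, was at 428 and 823 TPM against 148 and 278 TPM (log2 difference 1.55, SE 0.45, limma adjusted p = 0.0473), and Bmp4 is given with the largest changes below. Pou5f1, which encodes the pluripotency factor OCT4, was at 318 and 280.2 TPM against 161 and 176 TPM, an adjusted p of 0.0188 in limma but a change under 2-fold. Nanog was at 224 and 284 TPM against 96.9 and 383 TPM, so that the Mcrs1 MO libraries lay on either side of the Max MO libraries. Sox2 was below 3 TPM in all 4 libraries and was not tested.

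Among 21 tested primitive endoderm genes, 2 were lower with Max MO and 19 did not pass, against 6.14% of all genes lower. Their median was -0.25. The 2 called genes were the endocytic receptor Lrp2, at 2.83 and 1.78 TPM against 19.9 and 20.4 TPM (log2 difference -2.69, SE 0.34, limma adjusted p = 0.00203), and its adaptor Dab2, at 129 and 198 TPM against 434 and 416 TPM (log2 difference -1.41, SE 0.20, limma adjusted p = 0.003). Both genes were also more abundant in the control TE libraries (66.7 and 74 TPM for Lrp2, 2072 and 1201 for Dab2) than in control ICM replicate 2 (5.84 and 1.49 TPM), whereas control ICM replicate 1 held 21.8 TPM of Lrp2 and 1438 TPM of Dab2, the latter within the range of the control TE. The lineage's transcription factors gave no call: Gata4 was at 26.1 and 2.52 TPM with Max MO and 6.99 and 14.7 TPM with Mcrs1 MO, Gata6 at 31.9 and 28.7 against 29.6 and 26.9 TPM, and Sox17 at 178 and 32.5 against 38.2 and 22.5 TPM. The Max MO replicates lay far apart for Gata4 and Sox17, so a difference of these genes was not detectable here.

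**Figure D3:**
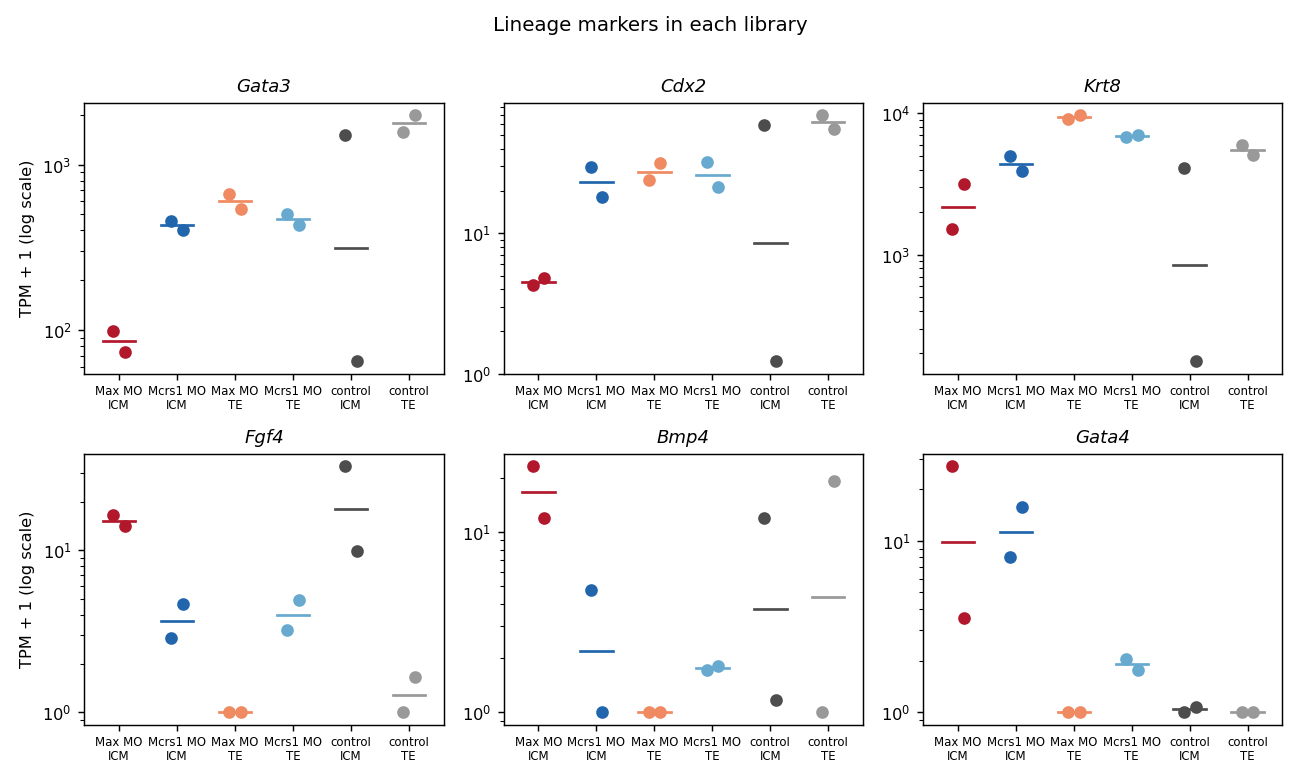
TPM + 1 on log axes of 3 trophectoderm markers (Gata3, Cdx2, Krt8), 2 epiblast genes (Fgf4, Bmp4) and the primitive endoderm factor Gata4 in the 12 libraries. Points are libraries and lines are group means of the log values. The Mcrs1 MO ICM libraries lie above the Max MO ICM libraries for the trophectoderm markers and below them for Fgf4 and Bmp4, and the 2 control ICM libraries lie far apart for Gata3, Cdx2 and Krt8.

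To see how far the calls follow the lineage, every tested gene was sorted by the control libraries, which took no part in the comparison. Of the 666 genes lower with Max MO, 283 (42.5%) were at least 2-fold higher in both control TE libraries than in control ICM replicate 2, against 18.2% of all genes tested, and 27 (4.05%) were at least 2-fold lower, against 12.8%. Of the 218 genes higher with Max MO, 60 (27.5%) were ICM genes by this rule and 20 (9.17%) were TE genes. Sorted by control ICM replicate 1, which itself carried trophectoderm markers, only 61 of the 666 (9.16%) were TE genes, against 8.26% of all. The share of the lineage in the calls was not tested further. The other 494 calls, 138 higher and 356 lower, fell among the 7481 genes with no such lineage difference against replicate 2, of which they are 6.6%. In pooled tissue, fewer cells of a type and less RNA per cell cannot be told apart.

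The calls also moved with transcript length and base composition. The longest annotated transcript had a median of 1663 bases for the genes higher with Max MO, 3619 bases for the genes lower with Max MO and 3038 bases for all genes tested, and the median GC content was 52.3%, 45.6% and 49.3%. With a smooth trend on length removed from each library, 740 genes passed, 145 higher and 595 lower.

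The 10 largest rises with Max MO are described first. Rhox5, an X-linked homeobox gene of the reproductive tract and extraembryonic tissue (chrX:37754608-37808878 of mm10), held 286 and 84.5 TPM with Max MO and 23.5 and 0 TPM with Mcrs1 MO, the largest fitted rise of the named genes (log2 difference 4.98, SE 1.20, limma adjusted p = 0.0235). Its replicates lay far apart in both groups, and it was called in 9 of 16 alternatives. Bmp4, the BMP ligand that later instructs mesoderm and primordial germ cells, was at 22.2 and 11 TPM against 3.79 and 0 TPM (log2 difference 2.93, SE 0.74, limma adjusted p = 0.0283). It was called in 7 of 15 alternatives and was also low in the TE of both knockdowns, with at most 0.818 TPM.

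Aspa, which encodes aspartoacylase, was at 99.9 and 65.9 TPM with Max MO and 12.5 and 3.01 TPM with Mcrs1 MO (log2 difference 3.48, SE 0.67, limma adjusted p = 0.0103). Osr2, a zinc finger developmental regulator, was at 99.1 and 141 TPM against 13.8 and 16.3 TPM (log2 difference 2.89, SE 0.75, limma adjusted p = 0.0307). Mpnd was at 9.36 and 10.2 TPM against 0.693 and 0.392 TPM (log2 difference 2.81, SE 0.50, limma adjusted p = 0.0079), called in 13 of 15 alternatives. Myod1, the master regulator of skeletal muscle, was at 6.3 and 15.4 TPM with Max MO against 0 and 0.355 TPM. Tpst1, a tyrosylprotein sulfotransferase, Apobec3, a cytidine deaminase that restricts retroviruses, and the noncoding RNA Platr26 had log2 differences of 3.13, 3.11 and 2.78. In the TE, Tpst1 and Apobec3 had negative differences of -2.83 and -2.05, and for both the difference between the lineages passed the test.

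Of the 10 largest falls, 7 were TE genes by the rule that used control ICM replicate 2. Car4, a membrane-bound carbonic anhydrase (chr11:84957754-84966054 of mm10), was listed at 0 in both Max MO ICM libraries and held 44 and 9.52 TPM with Mcrs1 MO (log2 difference -4.44, SE 0.70, limma adjusted p = 0.00455). Schip1 was at 0.69 and 1.18 TPM against 40.1 and 30.9 TPM (log2 difference -4.24, SE 0.82, limma adjusted p = 0.0109). Fgfbp1, which releases FGFs from the matrix, was at 0 and 3.34 TPM against 34.8 and 30.1 TPM (log2 difference -4.001, SE 0.72, limma adjusted p = 0.00793). Errfi1, a feedback inhibitor of EGF receptor signalling, was at 7.84 and 0.972 TPM against 83.3 and 29.3 TPM (log2 difference -3.60, SE 0.66, limma adjusted p = 0.00867). Krt19 was at 0.823 and 0 TPM against 5.83 and 53.2 TPM, so that its Mcrs1 MO replicates lay far apart.

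Gsta1, a glutathione transferase, was at 2.5 and 2.57 TPM with Max MO and 30.1 and 49.4 TPM with Mcrs1 MO, called in 15 of 16 alternatives. Nkx2-9, a homeobox gene, was at 1.38 and 0 TPM against 18.5 and 15.6 TPM, and control ICM and TE held at most 1.68 TPM of it. The microRNA locus Mir7646 had a log2 difference of -3.76, but it lies within Armcx5 and Gprasp1 on the same strand, whose reads it shares. Car4, Fgfbp1, Errfi1, Gata2, Krt19, Gsta1 and Schip1 were TE genes by the control libraries, whereas Nkx2-9, Mir7646 and Plk2, described with the p53 genes, were not.

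The partners of MAX gave no call. None of the 11 tested genes of the MYC, MAX and MXD network and none of the 12 genes of PRC1.6 passed the threshold. Of all genes 8.15% passed, and at that share lists this short would hold few calls. In each list 3 genes had an unadjusted limma p under 0.05, against 3191 of all 10844 genes. The medians were -0.45 and -0.25. Mycn, the MYC gene of the early embryo, was at 14.5 and 28.2 TPM with Max MO and 39.3 and 52.1 TPM with Mcrs1 MO (log2 difference -1.12, SE 0.39, limma adjusted p = 0.0857), and it was a TE gene by the controls. Mlx was at 36.6 and 41 TPM against 47.6 and 49.4 TPM. In PRC1.6, the heterochromatin protein gene Cbx3 was at 166 and 162 TPM against 235 and 271 TPM with limma adjusted p = 0.027 but a change under 2-fold, and Hdac1 was at 272 and 299.7 TPM against 222 and 254 TPM. Among 23 tested nucleotide, polyamine and other MYC target genes none was called, with 4 at an unadjusted p under 0.05 in limma, and among 31 genes of the nucleolus and RNA polymerase I only the initiation factor Rrn3 was (52.1 and 38.7 TPM against 83.3 and 104, log2 difference -1.03).

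Of 21 tested germ cell genes of the kind that MAX complexes silence in embryonic stem cells, 2 were higher with Max MO, 1 was lower and 18 did not pass, against 2.01% of all genes higher and 6.14% lower. The differences of 16 were positive and those of 5 negative, with a median of 0.26 against -0.15 for all genes. Rec8, a meiotic cohesin subunit, was at 5.58 and 9.62 TPM with Max MO and 0.241 and 0 TPM with Mcrs1 MO (log2 difference 2.91, SE 0.57, limma adjusted p = 0.0115). Syce1, a protein of the synaptonemal complex that joins paired chromosomes, was at 45.7 and 106 TPM against 13.4 and 6.24 TPM (log2 difference 2.79, SE 0.53, limma adjusted p = 0.01). The control ICM libraries held 19.2 and 39.9 TPM of Rec8, more than either knockdown, and 35.8 and 14.4 TPM of Syce1. Hormad1, which marks unpaired meiotic chromosomes, went the other way, at 15.2 and 20.9 TPM with Max MO and 48.8 and 39.4 TPM with Mcrs1 MO (log2 difference -1.25, SE 0.30, limma adjusted p = 0.0235).

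The upstream 250 bases of 3 called genes, Syce1, Hormad1 and Bmp4, were searched for the E-box CACGTG, which MAX complexes bind, and are shown as examples with and without it. Those of Rec8, which are not shown, held no copy. They were taken from RefSeq for the build GRCm38.p6 (mm10), run 5′ to 3′ on the strand of the gene up to its annotated start, and hold any CACGTG in capitals.
Syce1 (chr7:140787855-140788104, minus strand): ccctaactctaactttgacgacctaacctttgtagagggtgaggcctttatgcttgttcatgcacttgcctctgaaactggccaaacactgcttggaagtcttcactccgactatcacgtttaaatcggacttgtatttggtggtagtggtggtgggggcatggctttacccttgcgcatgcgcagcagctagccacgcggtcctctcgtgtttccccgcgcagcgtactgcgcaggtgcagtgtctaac
Hormad1 (chr3:95559429-95559678, plus strand): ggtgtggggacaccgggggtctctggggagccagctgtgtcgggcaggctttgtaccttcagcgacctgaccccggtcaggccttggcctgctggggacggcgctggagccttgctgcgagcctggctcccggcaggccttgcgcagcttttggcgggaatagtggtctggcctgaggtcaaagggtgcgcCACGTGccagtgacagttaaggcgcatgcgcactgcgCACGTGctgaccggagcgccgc
Bmp4 (chr14:46390670-46390919, minus strand): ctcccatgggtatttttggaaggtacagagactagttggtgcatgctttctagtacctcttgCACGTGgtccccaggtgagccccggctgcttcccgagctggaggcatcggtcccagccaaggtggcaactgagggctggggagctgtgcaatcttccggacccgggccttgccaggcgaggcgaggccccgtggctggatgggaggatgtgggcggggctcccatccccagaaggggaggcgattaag
Hormad1 held 2 copies, starting 59 and 22 bases before its start, and Bmp4 held 1, starting 188 bases before its start, while Syce1 held none. In windows of 300 bases (250 before to 50 after the start), on either strand, CACGTG was present in 12.2% of the 8132 tested genes with a RefSeq promoter, in 12.2% of 156 genes higher with Max MO and in 11.8% of 507 genes lower with Max MO. In the germ cell list, 9 of 20 windows (45%) held it, among them those of Hormad1, Ddx4, Mael, Stk31, Sycp1 and Sycp3. The E2F letters TTCCCGCC were in 4.99% of all, 1.28% of the higher and 5.92% of the lower genes, and the T-box letters TCACACCT in 1.16%, 1.92% and 1.18%. These are matches of letters, not binding sites.

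The partners of MCRS1 also gave few calls. Of 9 tested NSL complex genes only Mcrs1 itself was called, against 8.15% of all genes, with a list median of -0.52. Of 15 INO80 genes, Mcrs1 and Tfpt were higher with Max MO, against 2.01% of all genes higher, with a median of 0.09. Tfpt, an INO80 subunit, was at 81.8 and 68 TPM with Max MO and 28.3 and 40.2 TPM with Mcrs1 MO (log2 difference 1.12, SE 0.28, limma adjusted p = 0.0285). Spindle microtubule genes had 3 of 24 members lower with Max MO and none higher, against 6.14% of all genes lower. Haus6, a subunit of the augmin complex that branches spindle microtubules, was at 13.6 and 18.3 TPM against 44.5 and 84.2 TPM (log2 difference -1.89, SE 0.33, limma adjusted p = 0.00724). The motor gene Kif11 and the microtubule polymerase gene Ckap5 had differences of -1.22 and -1.15 whose adjusted p in limma lay just under the threshold, each called in 3 of 16 alternatives.

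**Figure D4:**
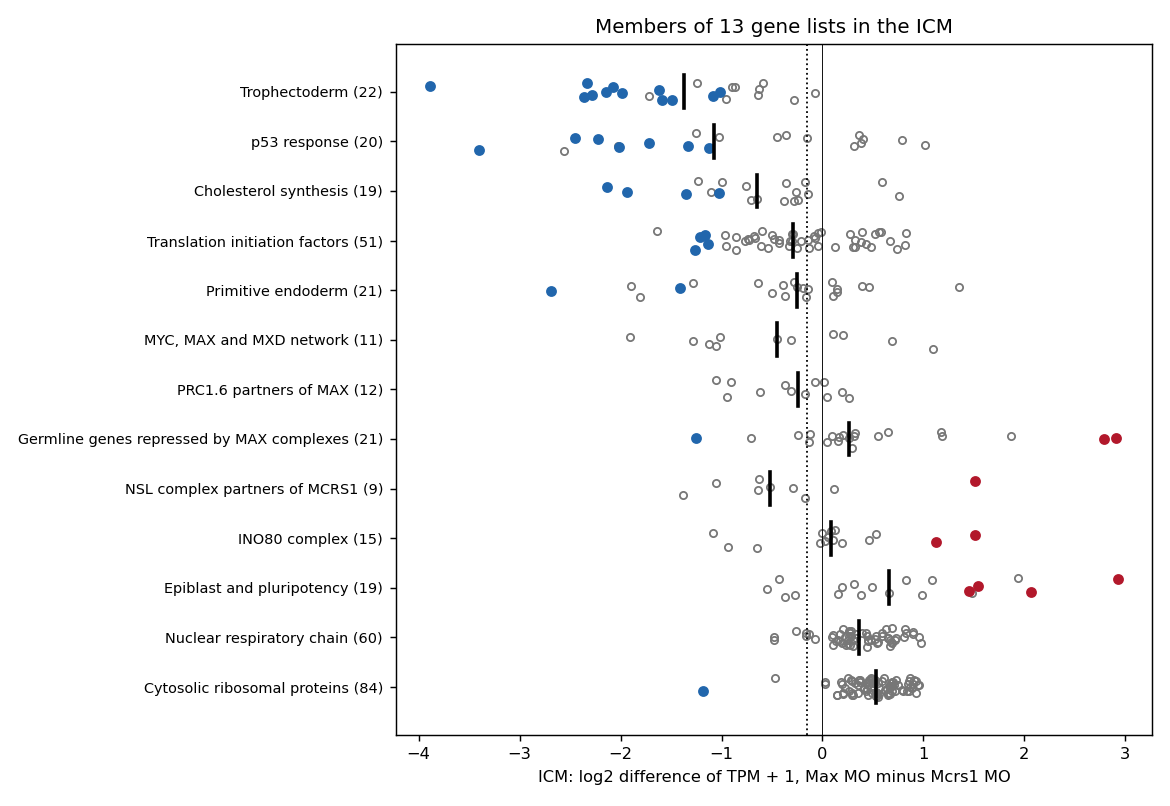
Log2 difference of TPM + 1 between Max MO and Mcrs1 MO in the ICM for the tested members (number in brackets) of 13 gene lists. Filled red and blue points passed the threshold, open points did not, black bars are list medians and the dotted line is the median of all genes (-0.15). The trophectoderm median lies at -1.37 and the ribosomal protein median at 0.53.

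Among 20 tested targets and members of the p53 response, 7 were lower with Max MO, none was higher and 13 did not pass, against 6.14% of all genes lower. Of the 20 differences 14 were negative and 6 positive, with a median of -1.08 against -0.15 for all genes. The TE median was -0.49, with none called. Cdkn1a, the p21 inhibitor of cyclin-dependent kinases, was at 18.1 and 9.76 TPM with Max MO and 112 and 38.6 TPM with Mcrs1 MO (log2 difference -2.22, SE 0.54, limma adjusted p = 0.0246). Mdm2, the ubiquitin ligase that degrades p53, was at 66.8 and 53.6 TPM against 196 and 118 TPM (log2 difference -1.33, SE 0.30, limma adjusted p = 0.019). Plk2, a polo-like kinase, was at 22.9 and 7.52 TPM against 223 and 101 TPM (log2 difference -3.40, SE 0.50, limma adjusted p = 0.00351), and in the TE at 16.4 and 32.8 against 144 and 161 TPM (log2 difference -2.66, SE 0.50, limma adjusted p = 0.0724). For each of these genes, as for every gene called lower, both Max MO ICM libraries lay below both Mcrs1 MO ICM libraries. This nearly follows from the call and adds no support to it.

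Phlda3, a repressor of AKT signalling, was at 11.3 and 8.63 TPM against 61.3 and 55.9 TPM (log2 difference -2.45, SE 0.37, limma adjusted p = 0.00363), and the apoptosis effector Perp at 72.5 and 68.6 against 419 and 199 TPM (log2 difference -2.02, SE 0.28, limma adjusted p = 0.00267). Ccng1 and Btg2 were the remaining members that fell. Trp53 itself, which encodes p53, was not called, with a log2 difference of 0.79, nor were the death genes Bax and Bbc3, at 0.40 and 0.36. By the controls 6 of the 20 were TE genes, among them Cdkn1a, Phlda3 and Perp of the called members, whereas Plk2 and Mdm2 were not. Control ICM replicate 2 held 10.5 TPM of Cdkn1a and 71.0 TPM of Mdm2, near the Max MO libraries, while replicate 1 held 91.5 and 216 TPM, near or above the Mcrs1 MO libraries.

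Other genes of survival and the cell cycle moved singly. Mcl1, an antiapoptotic member of the Bcl2 family, was the only call among 10, at 13.2 and 8.98 TPM against 25.4 and 35.3 TPM (log2 difference -1.38, SE 0.34, limma adjusted p = 0.0248). The cyclin gene Ccne2 fell with a log2 difference of -1.74. Ccne2 and Cdkn1a were the 2 calls among 20 cyclins and their kinases and inhibitors, against 6.14% of all genes lower. Rrm2, the small subunit of ribonucleotide reductase, was the only call among 30 replication genes, at 519 and 641 TPM against 1267 and 1311 TPM (log2 difference -1.16, SE 0.14, limma adjusted p = 0.0018). Of 55 tested histone genes Hist1h3c was higher and Hist1h3d lower, both below 14 TPM and both members of a multigene family whose reads can be split between copies. Of 17 genes of the amino acid and endoplasmic reticulum response, Dnajb9 and Hsp90b1 fell, by 1.28 and 1.05 on the log2 scale. Of 16 heat shock genes, the cochaperone gene Bag3 fell by 1.17. For the counts of this paragraph, the share over all genes tested was 2.01% higher and 6.14% lower with Max MO.

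**Figure D5:**
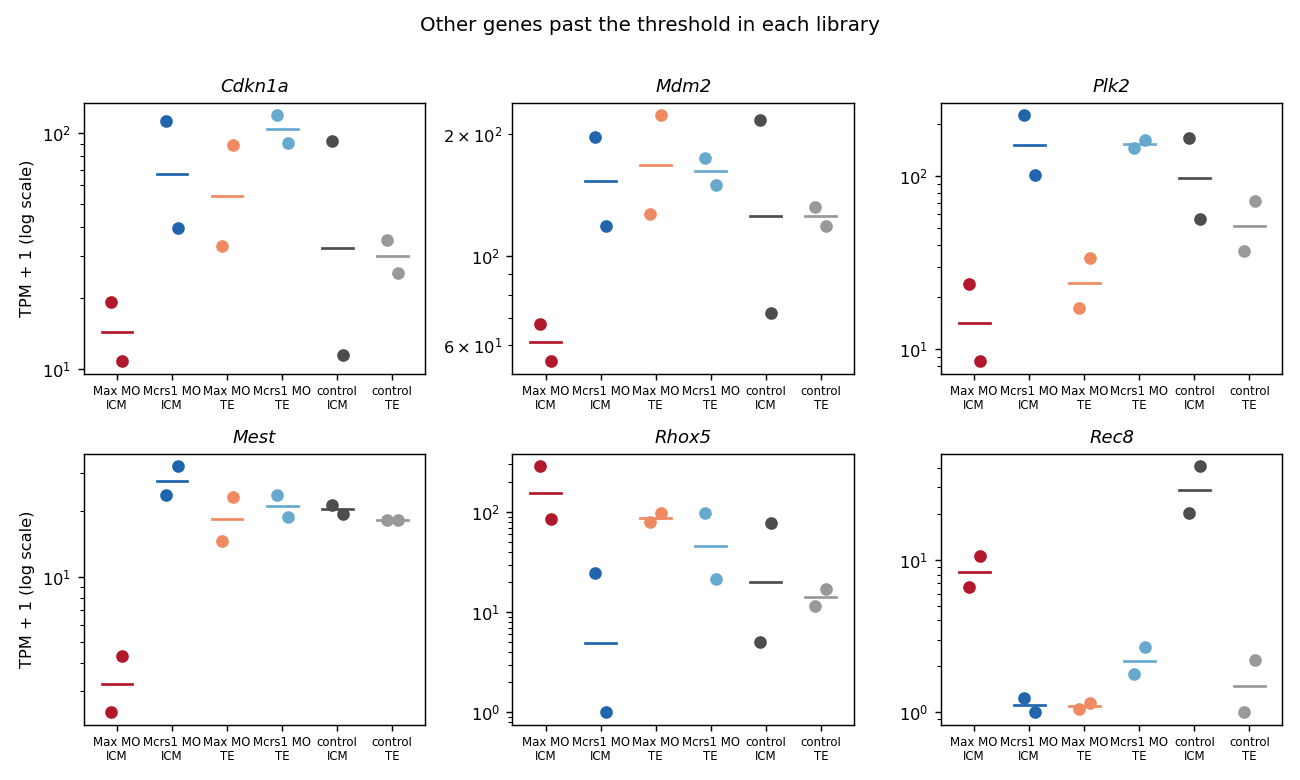
TPM + 1 on log axes of the p53 targets Cdkn1a, Mdm2 and Plk2, the imprinted gene Mest, Rhox5 and the meiotic gene Rec8 in the 12 libraries, with points for libraries and lines for group means of the log values. Mest is low in the Max MO ICM alone (1.38 and 3.33 TPM). Plk2 is lower with Max MO than with Mcrs1 MO in both lineages, but it passed the threshold only in the ICM.

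In glycolysis, 3 of 17 genes were lower with Max MO, against 6.14% of all genes lower. Slc2a3, the glucose transporter GLUT3, was at 38.1 and 35.5 TPM with Max MO and 268 and 198 TPM with Mcrs1 MO (log2 difference -2.61, SE 0.19, limma adjusted p = 0.000186), called in 16 of 16 alternatives. Hk2, a hexokinase, was at 18.1 and 17.6 TPM against 65.1 and 51.5 TPM (log2 difference -1.64, SE 0.23, limma adjusted p = 0.00279), and Pfkm, a phosphofructokinase subunit, at 1 and 0.25 against 17.6 and 13.5 TPM (log2 difference -3.38, SE 0.54, limma adjusted p = 0.00472). For these 3 of 17 glycolysis genes the difference between ICM and TE also passed the test, and the list median was -0.02. Slc2a3 and Hk2 were TE genes by the controls and Pfkm was not.

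Cholesterol synthesis had 4 of 19 genes lower, none higher and 15 that did not pass, against 6.14% of all genes lower, with a median of -0.65 in the ICM and 0.15 in the TE. Insig1, the sterol sensor that restrains the pathway, was at 5.37 and 10.6 TPM against 30.7 and 33 TPM (log2 difference -1.94, SE 0.37, limma adjusted p = 0.01). Dhcr7, its last enzyme, was at 2.93 and 5.97 TPM against 20.3 and 23.7 TPM (log2 difference -2.13, SE 0.44, limma adjusted p = 0.0135), while Idi1 and Hmgcs1 had differences of -1.36 and -1.03. Of the 19 genes 11 were TE genes by the controls, but Dhcr7 was an ICM gene there and Hmgcs1 neither.

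Genes for ribosomes and respiration had small positive differences. The 84 tested cytosolic ribosomal protein genes had a median of 0.53, with 82 above 0 and 1, the paralog Rpl22l1, called lower (log2 difference -1.19). The 60 nuclear respiratory chain genes had a median of 0.36 with no call, 28 of them at an unadjusted p under 0.05 in limma. With the length trend removed these medians became 0.10 and -0.03, against -0.15 for all genes in that setting. Both lists thus stayed above the median of all genes, but by less. Of 51 translation initiation factors 4 were lower with Max MO, a share near the 6.14% of all genes: Eif2ak1, Eif4g2, Eif3a and Eif1a, with differences of -1.27, -1.21, -1.16 and -1.13. For all 4 the difference between ICM and TE passed the test. No call was made among 37 proteasome genes, where 13 were at an unadjusted p under 0.05 in limma, against 3191 of all 10844 genes.

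Chromatin genes moved singly. Mtf2, an accessory subunit that guides PRC2 to its targets, was at 91.3 and 75.6 TPM with Max MO and 229 and 275 TPM with Mcrs1 MO (log2 difference -1.58, SE 0.18, limma adjusted p = 0.00117), called in 16 of 16 alternatives. The PRC2 core gene Suz12 was at 20.9 and 21 TPM against 45.9 and 55 TPM (log2 difference -1.22, SE 0.25, limma adjusted p = 0.013). These were 2 of 9 PRC2 genes, against 6.14% of all genes lower. The list median was -0.41, and neither Mtf2 nor Suz12 was a lineage gene by the controls. Dnmt3b, a de novo DNA methyltransferase, was at 33.9 and 23 TPM against 59.4 and 100.1 TPM (log2 difference -1.43, SE 0.31, limma adjusted p = 0.016), whereas Dppa3, the maternal factor that protects DNA methylation in the zygote, was higher with Max MO at 8924 and 12869 against 5269 and 4294 TPM (log2 difference 1.17, SE 0.20, limma adjusted p = 0.00566). The Dppa3 difference shrank below 2-fold with quantile normalization (0.73) and with the length trend removed (0.61). Dppa3 was also not called with no filter on low values or without limma's trend. Kdm5a, an H3K4 demethylase, was 1 call among 12 H3K4 genes (log2 difference -1.46, SE 0.40, limma adjusted p = 0.0393), against 6.14% of all genes lower. By the controls Dnmt3b and Kdm5a were TE genes, while Dppa3 was not a lineage gene. None of 15 H3K9 methylation genes was called, against 8.15% of all genes. Of the 15, 3 had an unadjusted p under 0.05 in limma, and the median was -0.46. Ooep, a subunit of the subcortical maternal complex of the oocyte, was higher with Max MO at 74.8 and 79.3 against 16.3 and 31.6 TPM (log2 difference 1.72, SE 0.31, limma adjusted p = 0.00798). It was 1 of 2 calls with Dppa3 among 6 oocyte and maternal genes, against 2.01% of all genes higher. Of 5 tested genes of the transient 2-cell programme none passed, against 8.15% of all genes. An unadjusted limma p under 0.05 was reached by 0 of them.

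Of 10 tested canonical imprinted genes 3 were lower with Max MO, against 6.14% of all genes lower. Mest, a paternally expressed hydrolase gene, was at 1.38 and 3.33 TPM against 22.7 and 31.1 TPM (log2 difference -3.10, SE 0.43, limma adjusted p = 0.00279), called in 16 of 16 alternatives. Each of the other 10 of the 12 libraries lay above both Max MO ICM libraries, with 13.6 and 22.1 TPM in the Max MO TE and 20.3 and 18.5 TPM in the control ICM, and the difference between the lineages passed the test (log2 difference -2.89, SE 0.61, limma adjusted p = 0.0328). Sgce, another paternally expressed gene, was at 0.394 and 3.16 TPM against 20.9 and 16.2 TPM (log2 difference -3.01, SE 0.53, limma adjusted p = 0.00747), but the control ICM held at most 0.0901 TPM. Impact was at 5.51 and 6.28 TPM against 26.6 and 22.4 TPM (log2 difference -1.88, SE 0.39, limma adjusted p = 0.0144). Of 6 genes imprinted through histone marks, the adaptor gene Gab1 fell (21.4 and 7.99 TPM against 39.4 and 41.6, log2 difference -1.55).

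Among 15 signalling genes, Fgf4 and Bmp4 were higher with Max MO and Wnt7b, Fgf3, Dusp6 and Id2 lower. Of these calls 3 were TE genes by the controls, and 1 was neither a TE nor an ICM gene. Over all genes 2.01% were higher and 6.14% lower. Wnt7b was at 0.834 and 3.22 TPM against 18.6 and 24.5 TPM (log2 difference -3.004, SE 0.46, limma adjusted p = 0.00421) and was a TE gene by the controls. Fgf3 was listed at 0 in both Max MO ICM libraries and held 2.48 and 5.55 TPM with Mcrs1 MO (log2 difference -2.26, SE 0.59, limma adjusted p = 0.0314). The Y-linked helicase gene Ddx3y was at 23.1 and 21.1 TPM against 45.3 and 63.4 TPM (log2 difference -1.24, SE 0.25, limma adjusted p = 0.013), while the Y-linked Eif2s3y was at 127 and 95.8 TPM against 132 and 139.9 TPM and was not called. Ddx3y was a TE gene by the controls.

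The ICM and TE shared few calls. Of the 884 ICM genes 6 were also past the threshold in the TE, which is 0.679% of the ICM calls and 46.2% of the TE calls, and 5 of the 6 had the same sign. Beside Mcrs1, the genes higher with Max MO in both lineages were Clybl and the class I histocompatibility genes H2-D1 and H2-L. Clybl, a mitochondrial citramalyl-CoA lyase, was at 124 and 134 TPM against 63.4 and 55.4 TPM in the ICM and at 147 and 159.9 against 57.3 and 55 TPM in the TE (log2 difference 1.43, SE 0.19, limma adjusted p = 0.0164). H2-D1 was at 327 and 396 TPM against 158 and 184 TPM in the ICM and at 395 and 376 against 123 and 138 TPM in the TE. H2-L overlaps H2-D1 in the annotation and is a near-identical copy, so the pair counts as 1 observation.

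Serpine2, a secreted protease inhibitor, was lower with Max MO in both lineages, at 186 and 97.7 against 318 and 373 TPM in the ICM and 111 and 146 against 485 and 410.1 TPM in the TE (log2 difference -1.80, SE 0.27, limma adjusted p = 0.0383). In control libraries Serpine2 ranged from 67.3 to 251 TPM, so that all 4 Max MO libraries lay within their range and all 4 Mcrs1 MO libraries above it. Ephx2, an epoxide hydrolase, was called in opposite directions: it was at 60.8 and 72.7 TPM with Max MO and 12.7 and 10.9 TPM with Mcrs1 MO in the ICM (log2 difference 2.40, SE 0.45, limma adjusted p = 0.00979), but at 0 and 0.0455 TPM against 11.3 and 5.24 TPM in the TE (log2 difference -3.10, SE 0.45, limma adjusted p = 0.0311). The difference between the lineages was past the threshold as well (log2 difference 5.50, SE 0.64, limma adjusted p = 0.00492). In the controls Ephx2 was likewise an ICM gene, at 18.5 and 70.2 TPM in the ICM and 0 and 4.26 TPM in the TE.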

How the data were processed

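RNA of ICM and TE pools was sequenced by Smart-seq2, and by the study's methods each reaction held only a small number of blastomeres. Per the study's methods and the labels' processing notes, the authors used Cutadapt (1.16) for trimming, HISAT2 for mapping to mm10 and StringTie for quantification. The authors deposited 1 table per library with coverage, FPKM and TPM. The deposited TPM column holds assembled loci, which sum to 1000000, beside 24421 annotated gene symbols, and was therefore handled as a signal on the scale of the loci. The deposited coverage and FPKM served only for depth, as their ratio. TPM of annotated rows was summed per gene.

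Values of log2(TPM + 1) were fitted with limma 3.58.1 in R 4.3.3 (eBayes with trend) over the 8 knockdown libraries in 4 groups, keeping 10844 genes whose mean over these libraries reached 1 TPM. A call required 2-fold or more and p under 0.05 after Benjamini-Hochberg adjustment. On simulated data for the ICM comparison with 200 of 10844 genes changed, 74% of 4-fold and 87% of 8-fold changes were called, and 15 of 176 calls were false. The changed genes were drawn from those above about 5 TPM on average. The noise was normal and independent between libraries, around the same mean in all groups. These figures therefore do not cover genes of low TPM or libraries that differ in lineage content. Named genes were Max, Mcrs1, the 10 largest changes each way with no overlap and a mean of at least 5 TPM (predicted names left out), up to 4 calls per list, or else its 2 most abundant members, and up to 5 genes each way called in both lineages. Other genes were chosen after their values were seen. The members and gene lists were chosen with earlier results of these data known. Alternatives were other scalings, pseudocounts, filters, library sets, the replicate block and length. Other tools were Python 3.11.15, pandas 2.3.3 and numpy 2.4.6. The 56 other libraries of the series, of cumulus cells and cloned embryos, were not used here.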

Additional observations from a re-analysis of the deposited data

Results flagged for a closer look

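Among the named genes, 34 were set apart because Max MO and Mcrs1 MO differed by another amount in the ICM than in the TE, by the limma interaction term at an adjusted p under 0.05 and at least 2-fold. The values below are the ICM difference minus the TE difference on log2(TPM + 1). Positive values, a more positive difference in the ICM, were found for Tpst1 (5.96), Ephx2 (5.50), Apobec3 (5.16), Osr2 (4.84), Myod1 (4.13), Aspa (4.12), Fgf4 (4.06), Rec8 (3.88), Syce1 (3.22) and Dppa3 (1.58). Negative values were largest in size for Pfkm (-4.57), Gata2 (-4.15), Gsta1 (-3.30), Wnt7b (-2.94), Mest (-2.89), Lrp2 (-2.85), Gata3 (-2.70), Cdx2 (-2.43), Insig1 (-2.23), Ccne2 (-2.18), Dnmt3b (-2.10) and Slc2a3 (-2.08). Smaller negative values were found for Dab2 (-1.99), Mcl1 (-1.94), Hk2 (-1.81), Eif3a (-1.77), Eif2ak1 (-1.75), Eif4g2 (-1.74), Ddx3y (-1.72), Perp (-1.63), Dnajb9 (-1.51), Mtf2 (-1.50), Eif1a (-1.20) and Rrm2 (-1.02). Of these 34 genes only Ephx2 also passed the threshold within the TE, so for the others the TE difference by itself was not called. Leaving out single libraries brought the count of such genes over the whole table from 399 to between 25 and 503, and it was 66 with no filter on low values, 1 without limma's trend and 0 with all 12 libraries in the fit, where 1415 genes had an unadjusted limma p under 0.05.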

How the results depend on the processing

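The 884 calls in the ICM became 397 with no filter on low values, 213 with the ICM fitted alone, 203 with all 12 libraries in the fit, 301 without the trend, 494 in genes with no lineage difference in the controls (an alternative chosen after seeing the data) and 316 to 863 with single libraries left out. The 13 calls in the TE became 8 with a pseudocount of 0.1, 0 with no filter (1498 genes at an unadjusted limma p under 0.05), 58 with the TE alone, 3 with all 12 libraries, 2 without the trend, 25 with the length trend removed and 1 to 24 with single libraries left out. The 399 calls of the difference between ICM and TE became 66 with no filter, 0 with all 12 libraries, 1 without the trend and 25 to 503 with single libraries left out. The cause of these shifts was not tested, except that fewer libraries entered the fits of 1 lineage and the fits without a library.

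Of 79 named genes past the threshold 7 (Lrp2, Mcrs1, Mest, Mir7646, Mtf2, Pfkm and Slc2a3) were called under every alternative. None changed sign, but most alternatives could not turn a sign. Leaving out 1 library cannot turn it where the groups do not overlap. The filters, the trend, the replicate block and the fits of other library sets leave the fitted difference as it is. Without Mcrs1 MO ICM replicate 1, 38 of the 79 kept the call, and with no filter, with the ICM alone, with all 12 libraries and without the trend 32, 30, 27 and 28 did. Max was called only without Max MO ICM replicate 1 (-3.12), with a range of -3.12 to -0.68 over the single libraries left out. The sign of uncalled genes turned for Gata4 (0.015), Tfap2c (0.043) and Xist (0.18) with quantile normalization, for Xist with a pseudocount of 0.1 (0.014), and with the length trend removed for Xist (0.28) and Zfp42 (-0.088). With single libraries left out, Gata4 ranged from -1.67 to 1.27, Nanog from -0.60 to 1.37, Obox6 from -0.40 to 2.09, Pdgfra from -0.067 to 0.99, Psma7 from -0.083 to 0.082, Rn45s from -0.23 to 0.33, Tfap2c from -0.33 to 0.19, Xist from -0.45 to 0.41 and Zfp42 from -0.12 to 0.42.

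Replicate numbers are shared between groups, but the labels do not pair the libraries, and deviations of same-numbered libraries correlated across genes at -0.03 in the ICM and -0.01 in the TE. With the replicate block, 810, 18 and 353 genes passed in the ICM, in the TE and for the difference between them. No read counts are given in the tables, so a low TPM has no counting interval.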
